A study of Danio rerio with 6 samples.

Results

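The genes described here are 8 zebrafish genes of the immunoproteasome and of class I antigen presentation: psmb8a, psmb9a, psmb12, psmb13a, tap1, tap2a, tapbp.2 and b2m. They were found by gene name in the deposited annotation sheet, each name had 1 Ensembl gene, and all 8 were among the 22350 genes of the count table and among the 19562 that passed a filter on low counts. RNA was sequenced from about 1 mm of trunk around a spinal cord lesion in wild-type larvae of the AB strain, with 20 animals pooled in each sample. Every animal, controls included, had its cord cut through at 5 days post fertilization, recovered for 6 h and was sampled at 3 days post injury, at 8 days post fertilization. One group was kept in 35 µM IWR-1 with 0.25% DMSO, and the control group in 0.25% DMSO alone. IWR-1 is a tankyrase inhibitor that blocks Wnt/β-catenin signalling. Each group had 3 biological replicates. No uninjured animals were analysed here, so the values compare drug with vehicle after injury only.

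Proteasomes cut intracellular proteins into peptides. In mammals the standard catalytic subunits are exchanged for inducible ones under interferon, which gives the immunoproteasome, and peptides from it are carried into the endoplasmic reticulum by the TAP transporter and loaded, with tapasin, onto class I molecules bound to beta-2-microglobulin. Nearly all nucleated cells can present peptides in this way, and leukocytes carry much of the machinery. In zebrafish part of this set lies together in the major histocompatibility complex on chromosome 19.

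Transcripts of 6 of the 8 genes rose with IWR-1, and none fell, in edgeR's quasi-likelihood test at a Benjamini-Hochberg adjusted p below 0.05 over all tested genes. Of all tested genes 3.88% were called higher, 3.59% lower and 7.47% in either direction. The 6 were psmb8a, psmb12, psmb13a, tap1, tap2a and tapbp.2. For psmb9a and b2m the fitted levels were 2.06-fold and 2.24-fold those of the controls, at adjusted p of 0.107 and 0.114. Fitted fold changes of the 8 genes ran from 2.06 (psmb9a) to 4.79 (tap2a), and the median log2 fold change was 1.55, where that of all tested genes was -0.01. A fitted rise of at least 2-fold was seen for 8 of 8 genes, against 3.95% of all tested genes; it was seen for 5 of 8 without IWR-1 replicate 2 or without DMSO replicate 1, against 4.02% and 4.55%. In CPM (counts scaled to library size with TMM factors), every IWR-1 library lay above every DMSO library for 7 of 8 genes, against 14.2% of all tested genes. With the replicate number as a block, edgeR called 8 of 8 higher, where it called 8.96% of all genes. DESeq2 called 5 of 8 and limma voom 5 of 8, against 4.1% and 3.72% of all genes. The count of 6 was 2 without IWR-1 replicate 2, without IWR-1 replicate 3 or without DMSO replicate 1, when the genes called higher over the whole table were 320, 258 and 339 in place of 759. The tissue is a mixture, so in these values more cells of a type and more RNA per cell cannot be told apart.

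**Figure D1:**
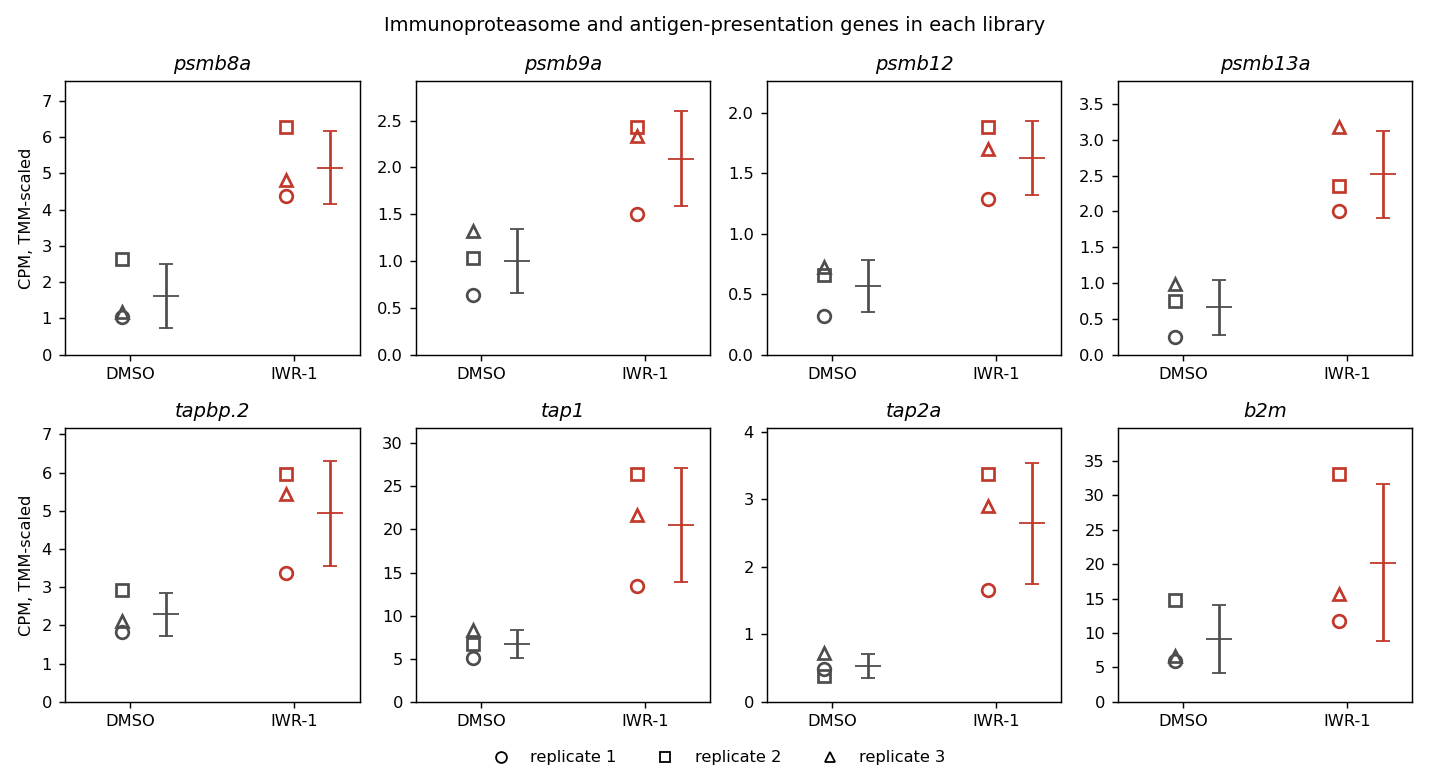
TMM-scaled CPM of the 8 genes in each library, 1 panel a gene with its own vertical axis from 0; symbols give the replicate number, and the bar and whiskers give the group mean and SD (n = 3). All 3 IWR-1 points lie above all 3 DMSO points in 7 panels; in the b2m panel DMSO replicate 2 (14.8 CPM) lies above IWR-1 replicate 1 (11.8 CPM).

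The first group of genes encodes proteasome subunits. psmb8a (ENSDARG00000001303; GRCz11 chromosome 19, 7105838 to 7144548, minus strand) encodes the inducible subunit that takes the place of psmb5 in mammals. It stood at 4.38, 6.29 and 4.81 CPM in IWR-1 replicates 1, 2 and 3 and at 1.04, 2.64 and 1.19 CPM in DMSO replicates 1, 2 and 3. The lowest IWR-1 library was 1.66 times the highest DMSO library, DMSO replicate 2, which stood well above the other controls. The gene rose from 1.62 ± 0.883 to 5.16 ± 1.00 CPM (SD, n = 3 each; 1.70 ± 0.34 SE on the log2 scale, edgeR adjusted p = 0.0131). Its adjusted p was 0.0605, 0.0510 and 0.0578 without IWR-1 replicate 2, IWR-1 replicate 3 and DMSO replicate 1, and 0.000402 with DESeq2.

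psmb13a (ENSDARG00000001656; chromosome 19, 7111779 to 7144585, minus strand), annotated as proteasome subunit beta 13a, had 28, 30 and 45 counts with IWR-1 and 3, 8 and 15 counts with DMSO. These correspond to 2.01, 2.36 and 3.19 CPM against 0.240, 0.754 and 0.990 CPM. Every IWR-1 library was at least 2.03 times the highest control. The log2 fold change was 1.89 ± 0.42 SE (edgeR adjusted p = 0.0225), with adjusted p of 0.0678, 0.123 and 0.0681 without IWR-1 replicate 2, IWR-1 replicate 3 and DMSO replicate 1.

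psmb12 (ENSDARG00000031885; chromosome 19, 7115223 to 7119456, plus strand), annotated as proteasome subunit beta 12, was the gene of the set with fewest counts, 88 over the 6 libraries. It had 18, 24 and 24 counts in the IWR-1 libraries and 4, 7 and 11 in the DMSO libraries. In CPM these were 1.29, 1.89 and 1.70 against 0.320, 0.659 and 0.726, so the groups did not overlap. It rose by 1.49 ± 0.39 on the log2 scale (edgeR adjusted p = 0.0430), and the adjusted p was 0.0608, 0.157 and 0.173 without IWR-1 replicates 1, 2 and 3, 0.153 without DMSO replicate 1 and 0.0727 with DESeq2.

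psmb9a (ENSDARG00000000656; chromosome 19, 7120380 to 7122373, plus strand) encodes the inducible subunit that replaces psmb6 in mammals. Its levels were 1.51, 2.44 and 2.34 CPM with IWR-1 and 0.639, 1.04 and 1.32 CPM with DMSO. The groups came close, IWR-1 replicate 1 being 1.14 times DMSO replicate 3. The log2 fold change of 1.04 ± 0.36 SE (95% interval 0.25 to 1.83) did not pass the test (edgeR adjusted p = 0.107). With the replicate block the adjusted p was 0.0372. Whether psmb9a responded less than its neighbours was not tested.

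A further inducible subunit gene outside the set, psmb10 on chromosome 4, rose from 2.91 ± 0.987 to 6.88 ± 1.31 CPM (1.22 ± 0.27 SE on the log2 scale, edgeR adjusted p = 0.0211). In mammals its product replaces psmb7. The adjusted p of psmb10 was 0.0823, 0.113 and 0.0884 without IWR-1 replicate 2, IWR-1 replicate 3 and DMSO replicate 1.

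The standard subunits gave no such rise. psmb5, psmb6 and psmb7 encode the standard catalytic subunits, and 0 of 3 passed edgeR's test (2 had an unadjusted p below 0.05, and DESeq2, limma voom and the replicate block called 0). Their log2 fold changes were -0.32 ± 0.13, -0.11 ± 0.19 and -0.39 ± 0.14, all below 0. Without DMSO replicate 2, psmb7 was called lower (adjusted p = 0.0320), and without DMSO replicate 3 the log2 fold change of psmb6 was 0.14. psmb5 was at 53.1, 61.4 and 56.5 CPM with IWR-1 and 68.1, 70.2 and 75.9 CPM with DMSO. psmb6 overlapped between the groups, at 20.7, 21.1 and 20.8 CPM with IWR-1 and 20.0, 17.9 and 29.3 CPM with DMSO.

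The ratio of an inducible to a standard subunit within a library does not depend on how libraries are scaled. For psmb8a it was 8.23, 10.2 and 8.52 counts per 100 counts of psmb5 in IWR-1 replicates 1, 2 and 3, and 1.52, 3.76 and 1.57 in the DMSO libraries, a 4.31-fold higher geometric mean. psmb13a gave 3.52, 4.46 and 6.05 counts per 100 of psmb7 with IWR-1 and 0.347, 1.21 and 1.21 with DMSO, a 5.72-fold difference. Set against psmb6, psmb9a differed 2.24-fold and psmb12 3.15-fold. The counterparts of psmb12 and psmb13a were a choice made for this comparison; against psmb5, psmb6 and psmb7 together the differences of psmb8a, psmb9a, psmb12 and psmb13a were 4.28-fold, 2.66-fold, 3.73-fold and 5.45-fold. In all 4 pairs the groups did not overlap, and the exact two-sided permutation test over the 6 libraries gave p = 0.1 for each (0.1 after adjustment over the 4), which is the smallest that 3 against 3 allows. In CPM all 4 inducible genes were already higher without overlap. psmb5 and psmb7 were lower with IWR-1 without overlap, as were 15.6% of all tested genes. For psmb8a over psmb5 and psmb13a over psmb7 the separation and its p follow from that. Only the pairs with psmb6, which overlapped, could have differed.

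**Figure D2:**
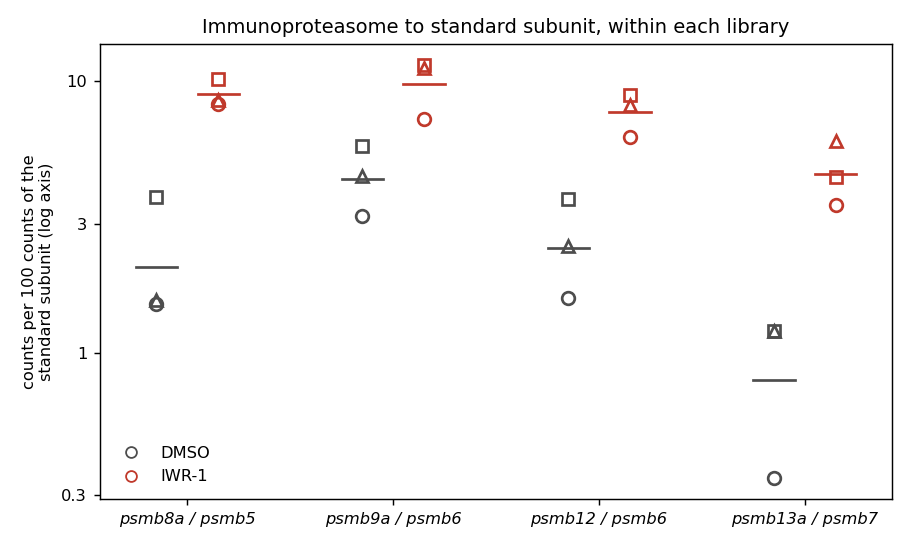
Counts of each inducible subunit per 100 counts of a standard subunit in the same library, on a log axis; circles, squares and triangles are replicates 1, 2 and 3, and lines are geometric means. For psmb8a over psmb5 the lines lie at 2.08 (DMSO) and 8.95 (IWR-1), and in no pair do the groups overlap.

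Of 10 tested genes for proteasome activators, an inhibitor and assembly factors, 2 rose and 0 fell. These were psme1 and psme2, whose products form the PA28 activator that caps the proteasome and is itself inducible by interferon in mammals. psme2 was at 19.5, 34.6 and 30.3 CPM with IWR-1 and 9.91, 10.3 and 12.2 CPM with DMSO (1.38 ± 0.22 SE on the log2 scale, edgeR adjusted p = 0.00394). psme1 rose by 1.12 ± 0.23 (edgeR adjusted p = 0.0152), with 0.0700, 0.0914 and 0.0699 without IWR-1 replicate 2, IWR-1 replicate 3 and DMSO replicate 1. psme3, which encodes the nuclear PA28 subunit and is named here after its values were seen, had a log2 fold change of -0.59 ± 0.17 (edgeR adjusted p = 0.0544), with 0.0388 in DESeq2 and 0.00722 with the replicate block.

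Most genes of the remaining particle had fitted levels below those of the controls. Of 12 other 20S core genes 0 passed edgeR's test (3 had an unadjusted p below 0.05, DESeq2 and limma voom called 0, and the block called 1 lower), with a median log2 fold change of -0.13. Of the 12, 1 was called higher without DMSO replicate 3. In the main fit 4 of the 12 had a log2 fold change above 0. The highest was psma4, named after its values were seen, at 0.38 ± 0.21 (edgeR adjusted p = 0.289). Of 25 genes of the 19S regulatory particle, which recognises ubiquitin-tagged proteins, 0 passed (7 had an unadjusted p below 0.05, DESeq2 and limma voom called 0, and the block called 3 lower). All 25 had a log2 fold change below 0, from -0.56 to -0.03, with a median of -0.24, while 49.5% of all tested genes were above 0. No test of these lists as sets was made.

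**Figure D3:**
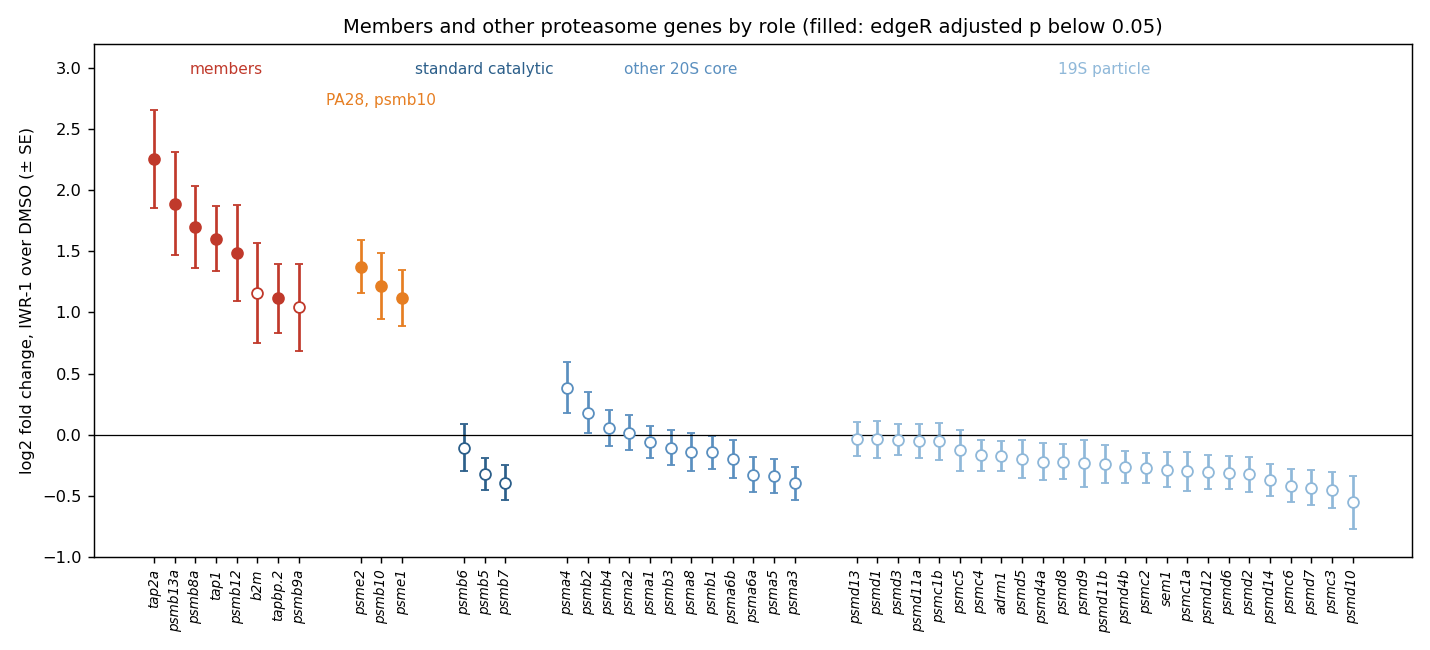
Log2 fold change of IWR-1 over DMSO with its standard error for the 8 genes (red), psme1, psme2 and psmb10 (orange), and standard proteasome genes by role (blues); filled points have an edgeR adjusted p below 0.05. The filled points lie between 1.12 (tapbp.2) and 2.26 (tap2a), and the blue points between -0.56 and 0.38.

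The second group of genes moves peptides into the endoplasmic reticulum. tap1 (ENSDARG00000079766; chromosome 16, 48678655 to 48708045, plus strand) encodes a chain of the TAP transporter. It was at 13.4, 26.5 and 21.7 CPM in IWR-1 replicates 1, 2 and 3 and at 5.11, 6.69 and 8.32 CPM in DMSO replicates 1, 2 and 3. IWR-1 replicate 1 was the lowest of its group and still 1.61 times the highest control. With 64 to 337 counts per library, tap1 rose from 6.71 ± 1.60 to 20.5 ± 6.61 CPM (SD, n = 3 each; 1.60 ± 0.26 SE on the log2 scale, edgeR adjusted p = 0.00522). It was called in 15 of 15 alternatives, at adjusted p of at most 0.0298.

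tap2a (ENSDARG00000036787; chromosome 19, 7124337 to 7132315, plus strand) encodes the partner chain. It had 23, 43 and 41 counts with IWR-1 and 6, 4 and 11 counts with DMSO, or 1.65, 3.38 and 2.90 CPM against 0.479, 0.377 and 0.726 CPM. Every IWR-1 library was at least 2.27 times the highest control. The log2 fold change, 2.26 ± 0.40 SE (95% interval 1.37 to 3.15; edgeR adjusted p = 0.00783), was the highest of the 8 genes, and tap2a was also called in 15 of 15 alternatives (adjusted p at most 0.0447). Its paralog tap2t on chromosome 12 was at 18.3, 26.7 and 21.2 CPM with IWR-1 and 11.9, 16.2 and 16.8 CPM with DMSO. For tap2t the log2 fold change was 0.56 ± 0.19 SE (edgeR adjusted p = 0.110, and 0.0174 with the replicate block).

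tapbp.2 (ENSDARG00000045011; chromosome 19, 7065988 to 7070691, minus strand) encodes a tapasin, the protein that holds class I molecules at the transporter. Its levels were 3.37, 5.97 and 5.45 CPM with IWR-1 and 1.84, 2.92 and 2.11 CPM with DMSO. The lowest IWR-1 library, replicate 1, lay just above the highest control, replicate 2. tapbp.2 rose by 1.12 ± 0.29 SE (edgeR adjusted p = 0.0393); the adjusted p was 0.150, 0.175, 0.142 and 0.0642 without IWR-1 replicate 2, IWR-1 replicate 3, DMSO replicate 1 and DMSO replicate 3, and 0.0523 with limma voom. The tandem copy tapbp.1 overlapped between the groups, at 2.87, 5.34 and 4.11 CPM against 1.52, 4.71 and 3.56 CPM (0.34 ± 0.37 SE on the log2 scale, edgeR adjusted p = 0.612; log2 fold change -0.0044 without DMSO replicate 1).

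Of 14 tested genes for other transporters and peptide loading, 5 rose and 0 fell (7 higher with the replicate block, 3 with limma voom). They were b2ml, erap1b, tapbpl, erap2 and, named after its value was seen, erap1a. In mammals ERAP aminopeptidases trim peptides in the endoplasmic reticulum, and tapbpl encodes a tapasin-related editor of the bound peptide. erap1b went from 6.18 ± 0.767 to 12.9 ± 3.29 CPM (edgeR adjusted p = 0.0176), and erap2, erap1a and tapbpl had log2 fold changes of 0.92 ± 0.24, 0.76 ± 0.20 and 0.90 ± 0.23 (edgeR adjusted p of 0.0412, 0.0468 and 0.0368). The general chaperone genes calr, calr3a, calr3b, canx and pdia3, named after their values were seen, had log2 fold changes between -0.17 and 0.39 and edgeR adjusted p of at least 0.219; calr3a, at 0.39, was called with the replicate block (0.0430). The count of 5 was 1 without IWR-1 replicate 2, 0 without IWR-1 replicate 3 and 1 without DMSO replicate 1.

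The third group is the class I molecule itself. b2m (ENSDARG00000053136; chromosome 4, 12785964 to 12795489, minus strand) encodes beta-2-microglobulin, the light chain. It was at 11.8, 33.2 and 15.7 CPM in IWR-1 replicates 1, 2 and 3 and at 5.99, 14.8 and 6.60 CPM in DMSO replicates 1, 2 and 3. Replicate 2 was the highest in both groups, and DMSO replicate 2 lay above IWR-1 replicate 1. The log2 fold change was 1.16 ± 0.41 SE (95% interval 0.26 to 2.06) and did not pass (edgeR adjusted p = 0.114). Within each replicate number the IWR-1 level was 1.96, 2.24 and 2.38 times the DMSO level, and with that number as a block the adjusted p was 0.000106. The gene model of b2m overlaps irak3 on the same strand over 5027 bases, so reads there can count for either or neither.

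The paralog b2ml, on chromosome 8, was at 238, 311 and 303 CPM with IWR-1 and 146, 156 and 170 CPM with DMSO. It rose by 0.85 ± 0.15 on the log2 scale (edgeR adjusted p = 0.00773, and 0.0528 without IWR-1 replicate 3). Levels of different genes are not ranked here, since no transcript lengths of this build were used.

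Of 19 genes named mhc1 in the annotation, which encode class I heavy chains, 11 were in the count table and 8 were tested. Of these 1 rose and 0 fell (3 higher with the replicate block). mhc1uma (chromosome 22 in the annotation) had 14, 17 and 31 counts in the IWR-1 libraries and 0 in each DMSO library. Against a floor of 3 counts over the DMSO group it was at least 19.4-fold higher with IWR-1 (edgeR adjusted p = 0.00356); where at least 1 CPM before TMM scaling was asked of 3 samples, it was not tested. The other 7 had log2 fold changes from -0.15 (mhc1lia) to 0.65 (mhc1zda), the latter at an edgeR adjusted p of 0.184, both named after their values were seen. With the block mhc1zda was called (0.0269), as was mhc1zba (0.0289), whose log2 fold change was 0.49 ± 0.20. mhc1uba and mhc1uka, which lie among the chromosome 19 genes in the annotation, were not analysed here: the table holds only genes with at least 6 counts in some library. Zebrafish carry several versions of this region that differ in gene content, and which versions the pooled animals carried is not given in the sources used here.

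Of the 8 genes, 6 lie within 78598 bases of chromosome 19, where part of this set is known to lie together. The search by gene name did not use position, but the list of names may reflect this known location. Within this stretch and 50000 bases on either side the annotation has 8 other genes, of which 5 were tested: daxx, tapbp.1, brd2a, hsd17b8 and col11a2. None of the 5 was called by edgeR, where 7.47% of all tested genes were called in either direction. With 5 genes, 0 calls cannot be set apart from that share. Of the 5, 0 had an unadjusted p below 0.05, and DESeq2, limma voom and the block called 0. Their log2 fold changes ran from -0.22 to 0.34. brd2a, a chromatin reader gene just beyond tap2a, had 1260 to 1312 counts with IWR-1 and 1279 to 1446 with DMSO. In the annotation psmb8a and psmb13a overlap each other over 32770 bases on the same strand, and both span psmb12, psmb9a and tap2a on the opposite strand. The library kit keeps strand, but the strand setting of the counting is not given in the sources used here, so these 5 genes may share or lose reads and are not fully separate measurements. tapbp.2 and tap1 overlap no other annotated gene.

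**Figure D4:**
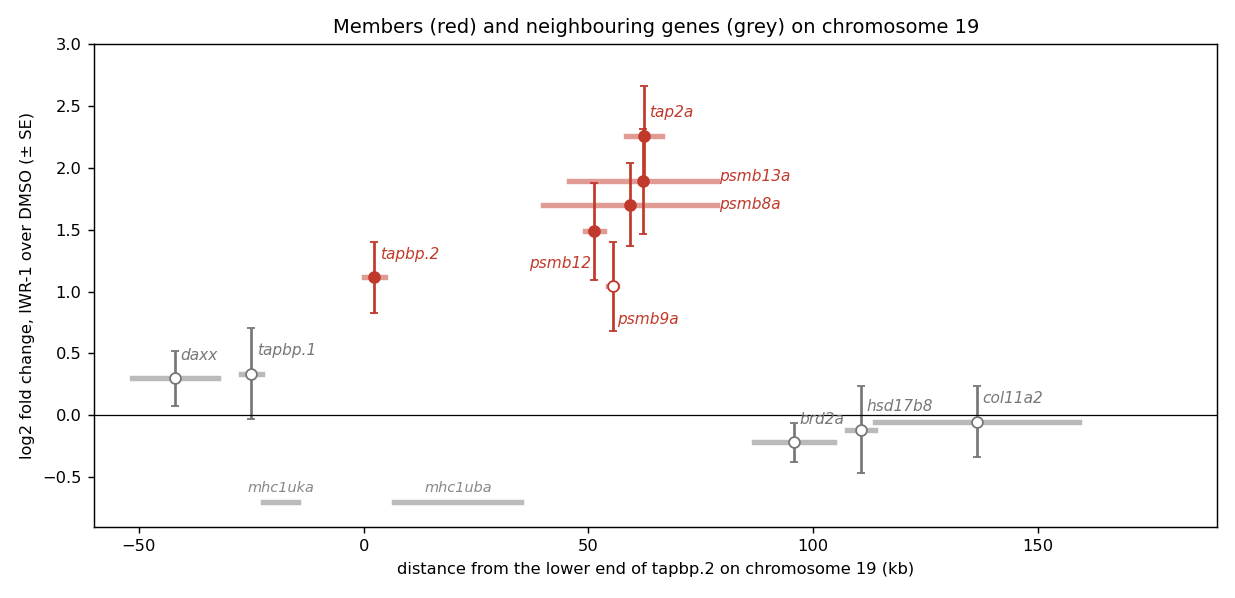
Log2 fold change with its standard error for the 6 genes on chromosome 19 (red) and their neighbours (grey), against distance from the lower end of tapbp.2; thick bars are gene spans, filled points have an edgeR adjusted p below 0.05, and mhc1uka and mhc1uba are drawn at the bottom as spans with no value. The red points lie between 1.04 and 2.26, and the grey points between -0.22 and 0.34.

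The 8 genes ordered the IWR-1 libraries much alike, and among the controls they shared the lowest library more than the highest. IWR-1 replicate 1 was the lowest IWR-1 library for 8 of 8 genes, against 38.2% of all tested genes, and IWR-1 replicate 2 the highest for 7 of 8, against 33.5%. DMSO replicate 1 was the lowest control for 7 of 8, against 24.6%. The highest control was DMSO replicate 3 for 5 of 8 and DMSO replicate 2 for 3 of 8, against 35.0% and 39.7%. The overlapping genes may share reads, so the 8 are not separate in this. Taking each gene relative to its DMSO mean, the median over the 8 genes was 2.14, 3.60 and 2.98 in IWR-1 replicates 1, 2 and 3, and 0.649, 1.15 and 1.26 in DMSO replicates 1, 2 and 3. Compared within a replicate number, IWR-1 was above DMSO in 3 of 3 pairs for each of the 8 genes, against 25.7% of all tested genes, by 1.77-fold (psmb9a, replicate 3) to 8.97-fold (tap2a, replicate 2). For the 7 genes whose groups did not overlap this follows from that separation, so only b2m could have differed. The genes on chromosome 19 are thinly covered, with 3 to 80 counts per library, and the high ratios rest on the lowest counts: tap2a had 4 counts in DMSO replicate 2 and psmb13a had 3 in DMSO replicate 1, where its ratio was 8.38. All 8 genes together held 196 to 333 counts in the DMSO libraries and 549 to 1043 in the IWR-1 libraries, out of 11014963 to 15219664 counts per library. On the second principal component (21.6% of the variance) the libraries ran from -37.1 (DMSO replicate 2) to 31.5 (DMSO replicate 3), and 6 and 5 of 8 genes were called without these libraries. The genes called higher over the whole table were then 918 and 1035, in place of 759.

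The authors' deposited table gives 5 of the 8 genes an adjusted p below 0.05, leaving out psmb9a (0.168), psmb12 (0.0706) and b2m (0.277). The share of all genes below 0.05 there was not calculated, so this count has no background beside it. It comes from the same libraries and is no separate support. In the authors' deposited table the log2 fold changes ran from 0.62 (b2m) to 1.44 (tap2a). Standard errors in the authors' deposited table do not exceed 0.335, and how its fold changes were made is not given in the sources used here, so they are not set beside the fitted ones.

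Of 23 tested regulators of class I genes and interferon signalling genes, 5 rose and 0 fell (12 higher with the replicate block). irf7, stat1b, ifngr1 and irf1b had the smallest p; the other was socs1a (1.07, named after its value was seen), a feedback inhibitor of cytokine signalling. irf1b, a transcription factor that drives class I and immunoproteasome genes in mammals, was at 63.5, 93.6 and 100.4 CPM with IWR-1 and 20.5, 40.3 and 43.7 CPM with DMSO (1.30 ± 0.26 SE on the log2 scale, edgeR adjusted p = 0.0149). Its adjusted p was 0.0590 and 0.0764 without IWR-1 replicates 2 and 3. irf7, a master regulator of interferon genes in mammals, rose from 2.07 ± 0.569 to 13.9 ± 2.47 CPM (edgeR adjusted p = 0.000154). stat1b, which encodes a transducer of interferon signals, rose from 26.9 ± 3.47 to 68.9 ± 13.5 CPM (edgeR adjusted p = 0.00133), and ifngr1, a receptor gene for interferon gamma, by 1.30 ± 0.23 (edgeR adjusted p = 0.00798). The paralogs irf1a (0.35 ± 0.25, edgeR adjusted p = 0.423) and stat1a (0.43 ± 0.15, edgeR adjusted p = 0.118) did not pass; stat1a was called with the block (0.0231) and without DMSO replicate 3 (0.0473). socs1a was not called without IWR-1 replicate 2, IWR-1 replicate 3 or DMSO replicate 1 (0.153, 0.139 and 0.135) or with limma voom (0.0596). The count of 5 was 3 without IWR-1 replicate 2 or 3 and 9 without DMSO replicate 2.

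nlrc5, the coactivator of class I genes in mammals, was too low to be tested, with 10, 18 and 17 counts with IWR-1 and 1, 5 and 6 with DMSO. The groups did not overlap, and with no filter the edgeR adjusted p was 0.0791. The interferon gene ifnphi1 had 15 counts over the IWR-1 libraries and 1 over the DMSO libraries, with an adjusted p of 0.0708 when not filtered. ifng1, which encodes interferon gamma, was not analysed here. Of 15 tested interferon effector genes 12 rose and 0 fell. Among them, uba7, which encodes the activating enzyme for Isg15, went from 10.6 ± 2.16 to 40.4 ± 7.08 CPM (edgeR adjusted p = 0.000315). This count was 7 without IWR-1 replicate 2, IWR-1 replicate 3 or DMSO replicate 1.

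Genes whose profile over the 6 libraries lay closest to the mean profile of the 6 called genes were lygl1, ftr14l, hephl1a, ifi35 and adgrf8, with root mean square differences of 0.137, 0.149, 0.158, 0.164 and 0.176 on the centred log2 CPM scale. This order covers genes outside the set with an informative name and a mean of at least 1 CPM; 5 tested genes outside those limits lay closer than tap1 did, at 0.134. The difference was 0.149 for psmb12 and 0.501 for b2m, but tap1 and psmb12 are part of the mean profile and b2m is not, so these are not ranked. lygl1 encodes a goose-type lysozyme and ifi35 an interferon-induced protein. ifi35 was at 13.7, 21.8 and 20.3 CPM with IWR-1 and 5.27, 5.65 and 7.06 CPM with DMSO (1.62 ± 0.22 SE on the log2 scale, edgeR adjusted p = 0.00168). The 5 named genes were picked for likeness to genes called higher, group difference included. Their own rise follows from that choice, and the p of ifi35 is no separate support.

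Markers of other cells were counted beside these genes. Of 10 pan-leukocyte markers 5 rose and 0 fell (8 rose with the replicate block), among them lcp1 (1.05 ± 0.20), ptprc (0.81 ± 0.16), cybb (1.36 ± 0.28) and ncf1 (1.36 ± 0.31), with edgeR adjusted p of 0.0115, 0.0149, 0.0164 and 0.0225; 0 were called without IWR-1 replicate 2, IWR-1 replicate 3 or DMSO replicate 1. The summed level of the 10 was 260.5 to 442.7 CPM with IWR-1 and 220.7 to 309.4 CPM with DMSO, so the groups overlapped. In every library the largest share of this sum was arhgdig, named after its values were seen. arhgdig was at 106 to 171 CPM with IWR-1 and 119 to 179 CPM with DMSO (log2 fold change 0.09 ± 0.22). A sum without arhgdig was not calculated. Taken singly, 7 of the 10 markers were higher with IWR-1 without overlap between the groups, against 14.2% of all tested genes. Their log2 fold changes, all 10 included, had a median of 0.92. Of 17 macrophage and microglia markers 2 rose, mpeg1.2 and grn1 (5 with the block), and the median log2 fold change was 0.36. mpeg1.1 was at 0.30 ± 0.23 (edgeR adjusted p = 0.462), and the summed level was 786 to 1161 CPM against 875 to 1030 CPM. Most of this sum was apoeb, named after its values were seen, at 480 to 676 CPM with IWR-1 and 604 to 797 CPM with DMSO. The log2 fold change of apoeb was -0.33 ± 0.17, while 14 of the 17 markers were above 0. Of 6 tested neutrophil markers 0 rose and 1 fell, npsn (-0.93 ± 0.23), while the median was -0.43. The block called 1 higher and 1 lower. The higher one was csf3r, at 0.76 ± 0.22 with overlap between the groups (edgeR adjusted p = 0.0609). Its adjusted p was 0.0212 with DESeq2 and 0.00264 with the block. Summed levels were 169 to 266 CPM against 204 to 325 CPM. Most of each sum was mmp9, at 120 to 182 CPM with IWR-1 and 119 to 256 CPM with DMSO (-0.48 ± 0.26). Both csf3r and mmp9 are named after their values were seen. npsn was called only with each IWR-1 library and DMSO replicate 3 kept (adjusted p up to 0.123 otherwise). Macrophage calls were 4 without DMSO replicate 2.

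For T and NK lymphocytes 7 of 22 annotated markers were tested, of which gata3 rose and eomesa fell, both also expressed outside lymphocytes. The defining T cell gene lck had 6, 5 and 8 counts with IWR-1 and 4, 2 and 6 with DMSO, zap70 had 3 to 10 in any library, and cd8a was not analysed here. The median log2 fold change of the 7 was 0.71, with 4 above 0. Of the 7, 4 were higher with IWR-1 without overlap between the groups, against 14.2% of all tested genes. They were gata3 and, named after their values were seen, cd28, il2rga and il2rb. The log2 fold changes of cd28 and il2rga were 1.63 ± 0.50 and 0.84 ± 0.24 (edgeR adjusted p of 0.0764 and 0.0583). Both were called with the replicate block (0.0400 and 0.0129). il2rb was at 0.95 ± 0.43 (edgeR adjusted p = 0.207, and 0.146 with the block). The summed level of the list was 40.6 to 61.7 CPM with IWR-1 and 35.7 to 38.8 CPM with DMSO, of which gata3 alone made up 24.4 to 39.4 and 18.5 to 20.1 CPM. Of 6 annotated B cell markers 1 was tested and 0 were called (1 had an unadjusted p below 0.05, DESeq2 and limma voom called 0, and the block called 1). The tested gene was blk, named after its values were seen, at 1.21 ± 0.37 without overlap (edgeR adjusted p = 0.0730, and 0.0348 with the block). cd79a had 3 to 10 counts a library. The summed B cell level was 1.65 to 3.54 CPM with IWR-1 and 1.58 to 2.26 CPM with DMSO. Of 5 tested dendritic cell markers 1 rose, batf3, with a summed level of 38.7 to 48.1 CPM against 33.5 to 42.5 CPM. In every library most of this sum was id2a, named after its values were seen. id2a was at 24.5 to 28.9 CPM with IWR-1 and 22.7 to 31.3 CPM with DMSO (log2 fold change -0.003). The median of the 5 was 0.65, with 4 above 0. Of the 5, 3 were higher with IWR-1 without overlap, against 14.2% of all tested genes. Without IWR-1 replicate 1, IWR-1 replicate 2 and DMSO replicate 1, eomesa was not called (0.0698, 0.0899 and 0.0832). Neither gata3 nor batf3 was called without IWR-1 replicate 2 (0.113 and 0.103) or DMSO replicate 1 (0.121 and 0.0951); gata3 was not called without IWR-1 replicate 3 (0.206) or DMSO replicate 3 (0.0579), and batf3 did not pass the filter without IWR-1 replicate 3. The part of these cell types in the rise of the 8 genes was not tested.

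The tissue itself was represented as labelled. Markers of skeletal muscle (12 tested, 0 called by edgeR; 2 had an unadjusted p below 0.05, DESeq2 and limma voom called 0, and the block called 2) summed to 64540 to 67320 CPM with IWR-1 and 61170 to 71130 CPM with DMSO. Spinal cord markers summed to 1163 to 1297 CPM against 1051 to 1395 CPM, with 1 of 12 higher, mpz. Their median log2 fold change was 0.04, with 7 of the 12 above 0. Most of this sum was gfap, named after its values were seen (log2 fold change -0.06 ± 0.17). Of 9 skin markers 4 fell, all keratin genes (krt4, krt5, krtt1c19e and cyt1). The count for the list was 1 without any one IWR-1 library or DMSO replicate 1. It was 2 without DMSO replicate 3, not all among these 4. There krt4, krt5 and krtt1c19e were not called (edgeR adjusted p of 0.0530, 0.0553 and 0.0707). Of the skin markers not called in the main fit, named after their values were seen, evpla was at 0.30, cldni at 0.03 and epcam at -0.07 on the log2 scale. krt91 was at -0.24 and tp63 at -0.47, the last called with the block (0.0213). The summed level of the list was 2934 to 4374 CPM against 4957 to 6117 CPM. Of 7 notochord markers 1 fell, cav1 (not called without any one IWR-1 library or DMSO replicate 1, at adjusted p of 0.0931 to 0.136), and the summed level was 1390 to 2826 CPM against 2391 to 2863 CPM. In every library most of this sum was col2a1a, named after its values were seen. col2a1a was at 915 to 2057 CPM with IWR-1 and 1680 to 2052 CPM with DMSO (log2 fold change -0.33 ± 0.25). The median log2 fold change of the 7 was -0.03, with 3 above 0. The part of these shares in the results above was not tested.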

How the data were processed

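Total RNA was depleted of ribosomal RNA and sequenced from 6 pools, per the labels' protocols, using an FFPE RNA kit for extraction and a directional library kit. Per the submitters' processing notes, the tools were STAR, featureCounts, cutadapt and FastQC, on build GRCz11; which versions were run, and whether counting used strand, the sources used here do not say. The authors deposited raw counts per Ensembl gene; columns were tied to samples through the deposited sample sheet and the titles. Their comparison gives, per the file headers, log2 fold changes with standard errors, p-values with adjusted p-values, and a mean normalised signal that is not used here; 869 adjusted p-values there are empty. The deposited size factors, coordinates and other annotation columns are the authors' values of other kinds. Member IDs found in the reference name table were 8 of 8.

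The test was edgeR's robust quasi-likelihood fit (version 4.0.16, R 4.3.3) on the counts, 3 against 3 with no covariates, after TMM scaling and filterByExpr, leaving 19562 of 22350 genes, with Benjamini-Hochberg adjustment over all of them. Each standard error is the log2 change over the root of its F statistic. The common biological coefficient of variation was 17.0%. Also tried were a replicate block, scaling by RLE or upper quartile, 2 other filters, each library left out, DESeq2 1.42.0, limma 3.58.1 voom, removal of mitochondrial genes with the 10 most abundant ones, and an adjusted p below 0.1. Scripts were tested on simulated counts. Biological replicates are the labels' term, and p-values measure the spread between these pools. No molecular identifiers are mentioned, so the floor of 3 counts covers counting error only.

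Deviations from the group means of samples with the same replicate number correlated at 0.293, 0.341 and 0.159, all over 0.1. The numbers were therefore taken as a possible pairing. This rests on the data alone, since no label states what equal numbers have in common, and correlations between different numbers are not given here. The main fit did not use the pairing, and only the replicate block did. Pairs of the same group differed beyond sampling noise (chi-square at least 8.73 times its degrees of freedom). The genes, lists and tests were chosen with earlier results of these data known. Named genes were the 8 members, a fixed panel, up to 4 called genes of smallest p in each list, called neighbours on chromosome 19, and the 5 informative names with a mean CPM of at least 1 closest in profile (log2 CPM with a prior count of 2).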

Additional observations from a re-analysis of the deposited data

How the results depend on the processing

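Of the 15 alternatives tried for each gene, 1 was the main fit read at an adjusted p below 0.1. That one could change no direction and lose no call. All 8 genes kept their direction in the 15. Of 120 values, 102 stayed on the same side of the threshold, 16 were no longer called and 2 became called. Those 2 came with the replicate block, for psmb9a (log2 fold change 1.06) and b2m (1.14). The 16 were psmb12 with DESeq2 (1.51), tapbp.2 with limma voom (1.09) and 14 with a library left out, and the cause was not tested. With single libraries left out, the log2 fold change was 1.47 to 2.199 for psmb8a, 1.21 to 1.74 for psmb12, 1.499 to 2.37 for psmb13a, 0.96 to 1.33 for tapbp.2, 0.80 to 1.33 for psmb9a and 0.61 to 1.68 for b2m (lowest without IWR-1 replicate 2), and 2 to 6 of the 8 genes were called; each such fit has 1 sample fewer. Over all genes these fits called 258 to 1035 higher and 189 to 1082 lower. With the replicate block 1753 genes were higher and 1733 lower, and at an adjusted p below 0.1 the numbers were 1230 and 1220.

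Gene lists moved as follows. With the replicate block the calls higher were 12 for regulators, 8 for pan-leukocyte, 5 for macrophage, 3 each for class I chains, T and NK, and spinal cord, 2 each for dendritic and muscle, and 1 each for neutrophil and B cell lists; the calls lower were 3 for the 19S particle, 2 for notochord and 1 each for other 20S and activator genes. At an adjusted p below 0.1 they were 8 for regulators and pan-leukocyte, 3 for T and NK, 2 for dendritic and spinal cord and 1 for neutrophil and B cell lists, and lower 3 for 19S, 2 for notochord and 1 for activator genes. DESeq2 gave 2 for T and NK, 1 for neutrophil, and lower 1 for activator and 2 for notochord genes. Limma voom gave 3 for peptide loading and 2 lower for notochord. Requiring at least 1 CPM gave 0 for class I chains and dendritic cells, and upper-quartile scaling 2 lower for skin. With single libraries left out the calls higher ran from 0 to 1 for other 20S, psmb10, neutrophil, B cell and dendritic lists, 1 to 2 for activators and class I chains, 0 to 5 for peptide loading, 0 to 2 for class II, T and NK and muscle, 3 to 9 for regulators, 7 to 12 for interferon effectors, 2 to 4 for macrophage and 0 to 7 for pan-leukocyte lists. Calls lower ran from 0 to 1 for standard catalytic, neutrophil and T and NK, 1 to 3 for skin and 0 to 2 for notochord lists.

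Among other named genes 2 of 895 values reversed, neither called: psmb6, with 1 library left out, ran from -0.24 to 0.14 (without DMSO replicate 3), and tapbp.1 from -0.0044 (without DMSO replicate 1) to 0.66. Depth limits the chromosome 19 genes, with 3 to 80 counts a library. Beyond the calls given with their block value in the text, the block changed no call of the 8 genes.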

Other observations

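Genes of the class II pathway, by which professional antigen-presenting cells show peptides from engulfed material, were listed beside those of class I. Of 6 tested genes 2 rose and 0 fell (3 higher with the replicate block), and these were the cathepsin S genes ctss2.1 and ctss2.2, which encode lysosomal proteases that in mammals cut the invariant chain. ctss2.1 was at 17.9, 32.8 and 27.0 CPM with IWR-1 and 13.7, 14.3 and 12.1 CPM with DMSO (0.95 ± 0.21 SE on the log2 scale, edgeR adjusted p = 0.0230). Levels of ctss2.2 averaged 23.6 ± 5.31 CPM in the controls and 45.4 ± 10.2 CPM with IWR-1 (SD over 3 libraries; edgeR adjusted p = 0.0223). Neither was called without IWR-1 replicate 2 (0.106 and 0.0924), IWR-1 replicate 3 (0.106 and 0.121) or DMSO replicate 1 (0.0803 and 0.0920).

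The invariant chain genes cd74a and cd74b had log2 fold changes of 1.08 ± 0.48 and 1.15 ± 0.41 (edgeR adjusted p of 0.196 and 0.114; for cd74b 0.00678 with the replicate block). cd74b did not overlap between the groups, at 2.30, 4.24 and 4.32 CPM against 0.639, 2.26 and 1.98 CPM. ciita, named after its values were seen, was also higher without overlap (0.79 ± 0.34 SE on the log2 scale, edgeR adjusted p = 0.189). Of the 6 tested genes 4 were higher without overlap, against 14.2% of all tested genes. Their median log2 fold change, all 6 included, was 0.95, with 5 above 0. mhc2dab, a class II chain gene named after its values were seen, overlapped between the groups, at 0.717, 1.02 and 1.49 CPM with IWR-1 and 1.28, 1.79 and 2.84 CPM with DMSO (-0.88 ± 0.39 SE on the log2 scale, edgeR adjusted p = 0.199). The summed level of the class II list was 57.8 to 91.2 CPM with IWR-1 and 34.8 to 47.5 CPM with DMSO. In every library most of this sum was ctss2.1 and ctss2.2, the latter at 33.8 to 52.6 CPM against 17.8 to 28.2 CPM. A sum without these cathepsin genes was not calculated.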
